A study of Caenorhabditis elegans with 32 samples.

Results

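Small RNAs of whole Caenorhabditis elegans worms were compared between the third (F3) and the first (F1) descendant generation of the wild-type (WT) line labelled hypoxia. These groups have 2 libraries each, so 4 of the 32 libraries of the study enter the comparison directly, chosen by their labels and not by any measured value. The other groups of the study are WT or hrde-1 mutant worms, labelled normoxia or hypoxia, at the parental generation (P0), F1, F2 and F3, again with 2 libraries each. Every group used below is one of these: P0, F1, F2 and F3 of WT under the hypoxia label, P0, F1 and F3 of WT under the normoxia label, and F1 and F3 of hrde-1 under the hypoxia label. The labels give no strain, clone or allele names, and they do not say how many worms went into a library or how old they were when collected. In the protocol, L4 larvae spent 16 h at 0.1% oxygen and 20 °C and were then returned to ambient oxygen of about 20%. The labels do not say whether the F1, F2 and F3 worms of a hypoxia line were exposed themselves or descend from exposed parents. Nothing states that the libraries of a group came from separate cultures, so p-values measure only the spread between these libraries, which may be technical.

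Counts were deposited as 4 tables, one for each class of small RNA. The 22G RNAs are made by RNA-dependent RNA polymerases on target transcripts, are antisense to them and are bound by worm-specific Argonautes. One of these Argonautes, HRDE-1, carries 22G RNAs into germline nuclei and is needed for silencing to be inherited over generations. The piRNAs, called 21U RNAs in worms, are made in the germline, bind the Argonaute PRG-1 and start 22G RNA production on their targets. The miRNAs repress mRNAs by pairing through their seed. The snoRNAs guide chemical modification of ribosomal RNA in the nucleolus, and a small RNA library captures fragments or short forms of them. RNA had been treated with a pyrophosphohydrolase, which lets the triphosphorylated 22G RNAs enter the libraries. Since whole worms were used, fewer germ cells and less small RNA per germ cell cannot be told apart.

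In the 4 libraries the 22G RNA table summed to 1199526 and 1463960 counts at F1 and to 2090753 and 1490656 at F3. The miRNA table summed to between 1845482 and 2027027 counts and the piRNA table to between 263388 and 458843. The snoRNA table summed to 125445 and 137189 counts at F1 and to 77432 and 64647 at F3. F3 replicate 1 stood apart from the other libraries in the number of features seen: 9019 genes had a 22G RNA count there, against 10685 in F3 replicate 2 and 12285 and 12864 in the F1 libraries. Thinned to 400000 counts, the F3 libraries still held fewer genes, 8393 and 9450, than the F1 libraries with 10155 and 10236 or the F2 libraries with 10285 and 10203. In WT under the normoxia label the same thinned numbers were 10804 and 10651 at F1 and 10484 and 10236 at F3. The part of this difference in the results below was not tested, and the calls between F3 and F1 are counted below with and without F3 replicate 1. The P0 WT normoxia libraries also stood apart: 22G RNA made up 9.27% and 6.15% of their counts (608364 and 438436) and miRNA 80.2% and 82.1%, against 43.2% and 41.2% 22G RNA under hypoxia at P0. The F2 WT normoxia libraries held fractional values in all tables except snoRNA. In those tables, 3 times the F2 value was at no entry below the sum of the same-numbered F1 and F3 WT normoxia values, so they are not independent of these libraries. They entered the choice of features tested, the scaling and the estimate of spread, but none of the group means compared. No value of theirs is printed, and the counts of calls without them stand beside the main counts.

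The 22G RNA share of the summed tables was higher at F3 than at F1, and the piRNA and snoRNA shares were lower, in every library. 22G RNA made up 33.97% and 36.08% of the counts at F1, 36.40% and 31.22% at F2, and 45.80% and 40.68% at F3. The mean moved from 35.03% ± 1.49 (SD, n = 2) to 43.24% ± 3.62, by 8.22 percentage points, and both F3 libraries lay above both F1 and both F2 libraries. piRNA took 9.98% and 11.31% at F1, 11.85% and 13.36% at F2, and 8.09% and 7.19% at F3, a mean difference of -3.001 points from 10.64% ± 0.942 to 7.64% ± 0.64 (SD, n = 2). snoRNA took 3.55% and 3.38% at F1, 4.54% and 2.90% at F2, and 1.70% and 1.76% at F3, with both F3 libraries below all others of the line. The miRNA shares of F1 (52.50% and 49.23%) and F3 (44.41% and 50.37%) overlapped. With 2 libraries against 2, the exact two-sided permutation test cannot give a p below 0.333, which is the value for 22G RNA, piRNA and snoRNA (0.444 adjusted over the 4 classes); for miRNA it was 0.667. Shares sum to a whole, so a larger 22G RNA share and smaller shares of other classes are not separate results. In the WT normoxia line the 22G RNA share was 35.16% and 33.29% at F1 and 36.65% and 32.75% at F3, which overlap. The snoRNA share was lower at F3 in WT normoxia too, with 2.58% and 3.81% at F1 and 2.28% and 2.38% at F3, which do not overlap. In the hrde-1 hypoxia line the snoRNA share ran the other way, from 2.41% and 2.61% at F1 to 3.43% and 5.72% at F3.

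**Figure D1:**
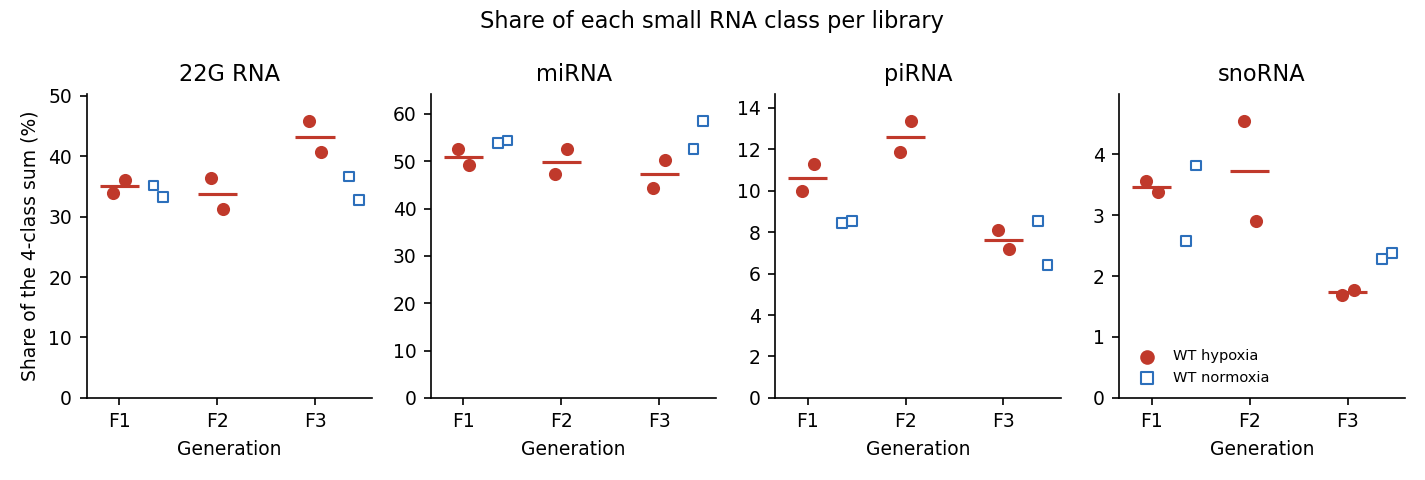
Share of each small RNA class in the sum of the 4 tables (percent, from 0) by generation, with 1 point per library, a bar at the mean of the WT hypoxia libraries and open squares for WT normoxia. The F3 WT hypoxia libraries lie above F1 for 22G RNA (45.80% and 40.68% against 33.97% and 36.08%) and below F1 for piRNA and snoRNA.

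Within each class, every level below is in CPM, counts of a feature scaled to the size of that class in its library with the trimmed mean of M values, and every fold change is a log2 difference of F3 minus F1 fitted with edgeR. Between F3 and F1, 13 of 10121 genes tested changed in 22G RNA (0.128%), 3 of them higher (0.0296%) and 10 lower (0.0988%), at an adjusted p below 0.05 in edgeR's quasi-likelihood test with Benjamini-Hochberg adjustment. For piRNA, 142 of 7978 features passed (1.78%), 39 higher (0.489%) and 103 lower (1.29%). For snoRNA, 45 of 339 passed (13.3%), 16 higher (4.72%) and 29 lower (8.55%). No miRNA of 261 passed, with 50 at an unadjusted p below 0.05 and 22 passing in DESeq2. The median log2 difference over all features tested was -0.04 for 22G RNA, -0.08 for miRNA, -0.32 for piRNA and 0.28 for snoRNA. These counts depended on single libraries. Without F3 replicate 1 they were 6 for 22G RNA, 45 for piRNA and 1 for snoRNA, and without F3 replicate 2 they were 154, 919 and 91. Without F1 replicate 1 they were 4, 64 and 15, and without F1 replicate 2 they were 0, 110 and 17. Scaling by the sum of the 4 tables, in place of within each class, moved the medians to 0.42 for 22G RNA, -0.83 for piRNA and -0.31 for snoRNA. The calls were then 2 higher and 0 lower for 22G RNA, 7 higher and 241 lower for piRNA, and 0 higher and 51 lower for snoRNA. Without the F2 WT normoxia libraries, 2 genes were higher and 9 lower in 22G RNA, 31 and 73 piRNAs, and 17 and 32 snoRNAs.

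Fewer features passed between F1 and F2 than between F2 and F3. From F1 to F2 of the same line 1 gene of 10121 changed in 22G RNA (0.00988%), and no piRNA, miRNA or snoRNA passed in edgeR; at an unadjusted p below 0.05 there were 140 genes, 77 piRNAs, 12 miRNAs and 10 snoRNAs. From F2 to F3, 11 genes changed in 22G RNA (0.109%), 86 piRNAs (1.08%) and 58 snoRNAs (17.1%), and no miRNA passed, with 35 at an unadjusted p below 0.05. Whether the F1-to-F2 and F2-to-F3 differences themselves differ was not tested, and the F2 libraries serve both. The F2-to-F3 counts come from the main fit, which holds F3 replicate 1, and are not given without that library.

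The small heat shock genes hsp-16, whose proteins hold unfolded proteins in solution under stress and which lie in pairs on chromosome V, had 22G RNA levels at F3 close to those at F1 in 4 of 6 genes, and lower levels at F2. At hsp-16.1 (V:9087293-9087782, minus strand of WBcel235) the level was 185 and 174 CPM at F1, 47.0 and 37.0 at F2, and 173 and 175 at F3. At hsp-16.48 (V:9088131-9088617, plus strand) it was 196 and 172 CPM at F1, 40.6 and 27.6 at F2, and 208 and 136 at F3. The F2 libraries stood below all others of the line at both genes, while F1 and F3 lay close together or overlapped. hsp-16.11 followed with 191 and 166 CPM at F1, 36.3 and 45.7 at F2, and 148 and 164 at F3. hsp-16.49 had 186 and 173 CPM at F1, 40.6 and 32.6 at F2, and 190 and 126 at F3. For these 4 genes the F3 minus F1 log2 differences lay between -0.19 and -0.04, with standard errors of 0.37 to 0.40 and edgeR adjusted p-values of 0.961 to 1. Their sign turned positive under the scaling to all 4 classes (0.29 to 0.44).

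The drop at F2 passed the test at hsp-16.48, by -2.43 ± 0.40 (log2, SE; edgeR adjusted p = 0.0265), the gene called between F1 and F2, and missed it at hsp-16.1 (-2.095 ± 0.41, edgeR adjusted p = 0.0731). At hsp-16.48 the call was lost in all 4 fits with 1 of the F1 or F2 libraries left out (edgeR adjusted p = 0.135 to 1) and under the scaling to 4 classes. From F2 to F3 all 4 rose, hsp-16.48 by 2.34 ± 0.40 (edgeR adjusted p = 0.0133) and hsp-16.1 by 2.05 ± 0.41 (edgeR adjusted p = 0.04). The rise kept its direction but lost its call at all 4 genes without F3 replicate 1, F2 replicate 1 or F2 replicate 2, with log2 differences of 1.75 to 2.62. It was also lost at all 4 genes under the scaling to 4 classes and in the libraries compared alone, and, except at hsp-16.48, without the F2 WT normoxia libraries. In WT under the normoxia label hsp-16.1 had 41.9 and 27.99 CPM at F1 and 47.0 and 50.0 at F3, and at P0 it had 140 and 124 CPM under hypoxia against 32.7 and 18.8 under normoxia. The hypoxia line thus stood above the normoxia line at F1 by 2.36 (log2; edgeR adjusted p = 0.00842) and at F3 by 1.84 (edgeR adjusted p = 0.0399) at hsp-16.1. The reads of hsp-16.1 and hsp-16.11, and of hsp-16.48 and hsp-16.49, may be split between near-identical copies, so each pair is better read as 1 locus.

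The other genes of the family had less 22G RNA at F3 than at F1, without passing. hsp-16.2 had 59.4 and 47.9 CPM at F1, 9.26 and 6.27 at F2, and 10.6 and 19.3 at F3 (log2 difference -1.85 ± 0.81, edgeR adjusted p = 0.515). hsp-16.41 had 46.1 and 41.7 CPM at F1, 12.8 and 13.2 at F2, and 19.1 and 27.4 at F3 (-0.92 ± 0.69, edgeR adjusted p = 0.779). Both F3 libraries lay below both F1 libraries at these genes. F44E5.4 and F44E5.5, a near-identical pair of HSP70 genes, showed the same low F2 values: F44E5.4 had 38.5 and 35.6 CPM at F1, 9.98 and 6.89 at F2, and 31.3 and 28.6 at F3. F44E5.5 had 45.2 and 43.1 CPM at F1, 8.55 and 6.27 at F2, and 28.4 and 20.5 at F3. Neither passed between F1 and F3 (edgeR adjusted p = 0.965 and 0.773). Over the list of heat shock genes, 0 of 19 tested passed, the median F3 minus F1 difference was -0.19, and the medians of the separate steps were -0.96 from F1 to F2 and 0.37 from F2 to F3.

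**Figure D2:**
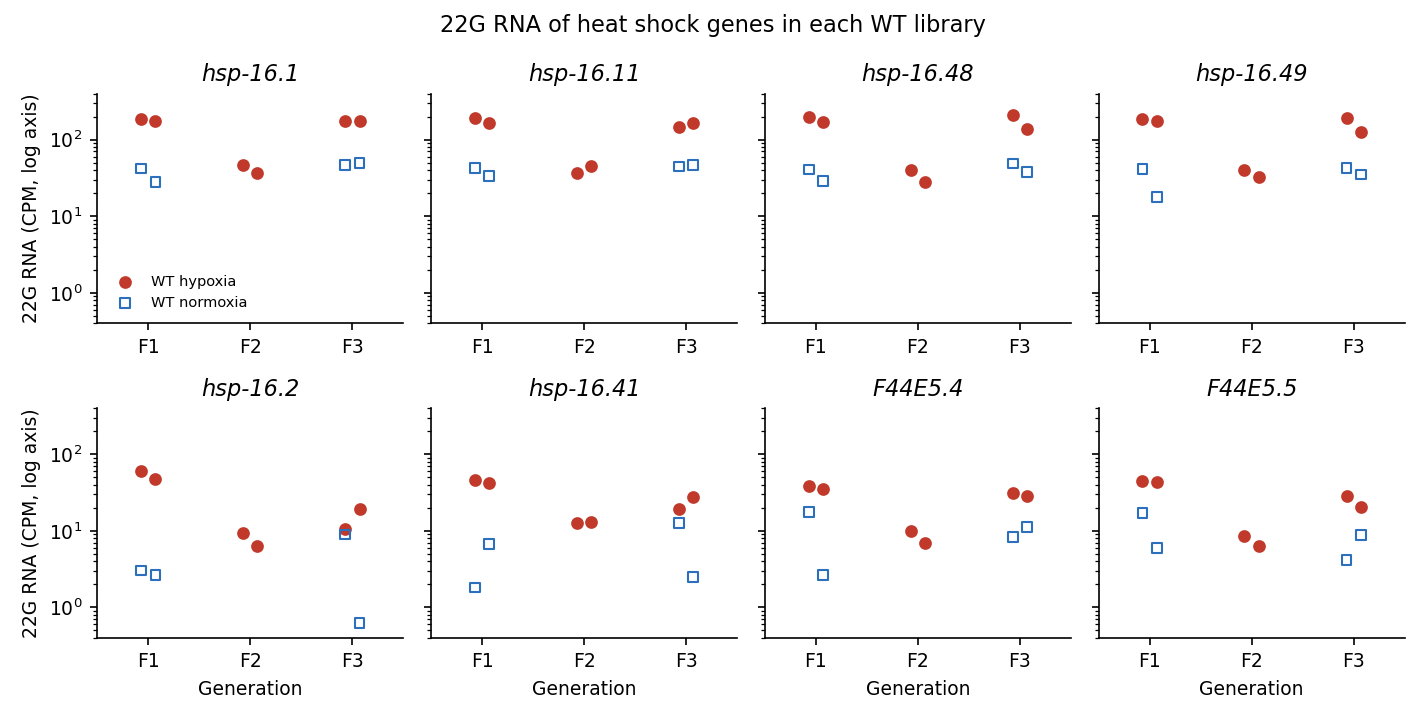
22G RNA level (CPM, log axis) of the hsp-16 genes in each library of the WT hypoxia line and of WT normoxia by generation. At hsp-16.1 the F2 hypoxia libraries (47.0 and 37.0) lay within the range of the normoxia libraries (27.99 to 50.0 at F1 and F3), while F1 and F3 lay between 173 and 185.

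Genes whose 22G RNA differed between the lines at F1 had mostly the same sign of difference at F3. At F1, 17 genes differed between hypoxia and normoxia (0.168%), 8 higher (0.079%) and 9 lower (0.0889%), and at F3 35 did (0.346%). The 8 higher at F1 were the 4 hsp-16 genes above, the chaperone gene hsp-110, the maternal meiosis gene memi-1, mip-2 and the inositol phosphate synthase gene inos-1; their median difference between the lines was 2.17 at F1 and 1.81 at F3, and all 8 kept their sign. The 9 lower had a median of -2.55 at F1 and -1.85 at F3, and 8 kept their sign. None of the 17 passed between F3 and F1, and since the F1 libraries chose them, no test over them is given. E01G4.5, a target of the Argonaute ERGO-1, was one of the lower genes, with 241 and 202 CPM at F1, 280 and 285 at F2 and 526 and 478 at F3 against 2183 and 1749 (F1) and 1265 and 2932 (F3) under normoxia. Both F3 libraries lay above both F1 libraries, yet the difference of 1.18 ± 0.52 did not pass (edgeR adjusted p = 0.53).

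Of the genes that responded at P0, those that rose had medians near 0 at F1 and F3. Most of those that fell kept their sign there, though few were called again. Of 72 genes called at P0 between hypoxia and normoxia (0.711%), 17 were higher (0.168%) and 55 lower (0.543%). These calls rest on the P0 WT normoxia libraries with their low 22G RNA share, whose part in them was not tested. The 17 higher genes had a median difference of 1.76 at P0, -0.17 at F1 and -0.13 at F3, and 7 of them had the P0 sign at F1 and 7 at F3. The 55 lower genes had medians of -2.58, -0.85 and -1.02, and 51 had the P0 sign at F1 and 52 at F3. Called in the P0 direction were 2 of the 17 at F1 and 2 at F3, and 5 of the 55 at F1 and 4 at F3. Over all genes tested the median difference between the lines was -0.008 at F1 and -0.06 at F3. Between F3 and F1 of the hypoxia line, 1 of the 17 (W01A11.7) and 1 of the 55 (fbxa-61) passed, both lower. Over all genes tested 0.0988% were called lower, and counts of 1 set neither group apart. The genes with the largest P0 response were measured as well. F10C2.11, which was among them, had 1870 and 1687 CPM at F1, and 646 and 1490 at F3 (log2 difference -0.74 ± 0.48, edgeR adjusted p = 0.721). F55C9.3 had 500 and 489 CPM at F1, and 219 and 367 at F3 (-0.76 ± 0.52, adjusted p = 0.744). T05E11.9, T09B4.14 and cel-mir-8199 differed by -0.19, -0.24 and 0.80, none passing. F10C2.11 overlaps kup-1 and the miRNA gene cel-mir-87 on the other strand, T09B4.14 overlaps cel-mir-1, and cel-mir-8199 is named as a miRNA gene. Since the use of strand is not stated, the values at these 3 loci may include miRNA reads, which was not tested. rrn-2.1, a ribosomal RNA gene, went from 15.9 and 15.7 CPM to 57.7 and 71.6 (2.02 ± 0.54, edgeR adjusted p = 0.157).

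3 genes gained 22G RNA between F1 and F3. Y48B6A.10 (II:14214409-14217139, plus strand) had 19.3 and 12.32 CPM at F1, 12.11 and 11.3 at F2, and 37.0 and 136 at F3, a difference of 2.44 ± 0.44 (log2, SE; edgeR adjusted p = 0.0144). The F3 libraries differed widely from each other at this gene, and it did not pass without F3 replicate 2, F1 replicate 1 or F1 replicate 2. pho-9 (III:2757084-2760816, minus strand), an acid phosphatase gene, had 63.6 and 45.2 CPM at F1, 66.3 and 92.1 at F2, and 167 and 132 at F3 (1.46 ± 0.24, edgeR adjusted p = 0.0117). C03D6.1 (I:9668627-9670726, minus strand) had 26.8 and 30.1 CPM at F1, 10.7 and 50.8 at F2, and 95.01 in replicate 1 and 99.5 ± 6.33 on average (SD, n = 2) at F3 (1.80 ± 0.37, edgeR adjusted p = 0.046). At pho-9 and C03D6.1 the libraries of F1 and F3 were well apart, while F2 lay between or overlapped. All 3 overlap a gene on the other strand: C03D6.1 overlaps cel-1 and rpl-24.2, pho-9 overlaps cox-6B, and Y48B6A.10 overlaps a pseudogene and an antisense RNA. The sources do not state whether reads were counted by strand, and at these genes they cannot be assigned to one of the overlapping genes with certainty.

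10 genes lost 22G RNA, and at several of them F2 lay between F1 and F3. fbxa-61 (III:1239048-1242799, plus strand), an F-box gene, had 137 and 160 CPM at F1, 74.1 and 72.1 at F2, and 25.6 and 21.2 at F3. The difference was -2.66 ± 0.44 (edgeR adjusted p = 0.0117), 6.3-fold, and no libraries of the 3 generations overlapped. fkb-5 (I:3898045-3899802, minus strand), a peptidyl-prolyl isomerase gene, had 27.6 and 28.7 CPM at F1, 12.8 and 10.7 at F2, and 4.47 and 0.62 at F3 (-3.32 ± 0.59, edgeR adjusted p = 0.0144). tbc-19 (X:14003020-14012517, minus strand), named for its TBC domain of Rab GTPase-activating proteins, had 79.5 and 63.6 CPM at F1, 54.2 and 53.9 at F2, and 5.69 and 8.72 at F3 (-3.32 ± 0.65, edgeR adjusted p = 0.0258). It overlaps cytb-5.1 on the other strand. In fkb-5 and tbc-19, too, each F2 library lay below both F1 and above both F3 libraries.

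The lower group also held non-coding loci. linc-15 (X:11991484-11991933, minus strand), a long intergenic RNA gene, had 20.9 and 47.2 CPM at F1, 17.8 and 5.64 at F2, and 0.41 and 0 at F3 (edgeR adjusted p = 0.0158). Its F3 value rests on 1 count against 94 at F1, a ratio of 126 with an exact 95% counting interval of 22.1 to 5040.0. H09G03.5 (III:3230419-3231647, plus strand), another long intergenic RNA gene, had 91.3 and 83.5 CPM at F1, 66.3 and 78.9 at F2, and 22.3 and 24.9 at F3 (-1.89 ± 0.35, edgeR adjusted p = 0.0166). Y17D7B.7 (V:18780490-18782605, minus strand), a pseudogene, had 237 and 233 CPM at F1, 153 and 150 at F2, and 52.4 and 80.3 at F3 (-1.83 ± 0.32, edgeR adjusted p = 0.0144). At both loci the F3 libraries were below every F1 and F2 library. Y73F8A.33, a pseudogene that overlaps Y73F8A.32 on the other strand, went from 624 and 680 CPM to 285 and 361 (-1.01 ± 0.18, edgeR adjusted p = 0.0144). W03G1.8, a non-coding RNA gene, went from 1566 and 1482 CPM to 858 and 921 (-0.78 ± 0.15, edgeR adjusted p = 0.0258). Among protein-coding genes, F26D11.12 (V:7954793-7955312, minus strand) had 18.4 and 13.7 CPM at F1, 15.7 and 21.3 at F2, and 0 and 0.62 at F3 (edgeR adjusted p = 0.0144). This is 1 count at F3 against 42 at F1, a ratio of 56.5 with an interval of 9.6 to 2280.0. W01A11.7 had 26.8 and 39.7 CPM at F1, 59.1 and 24.4 at F2, and 9.34 and 6.23 at F3 (-2.06 ± 0.40, edgeR adjusted p = 0.0235). The F1 and F3 libraries of all 13 called genes did not overlap, as was also so at 4052 of the 10121 genes tested. Of the 13, 2 stayed called without F3 replicate 1, 11 without F3 replicate 2, 4 without F1 replicate 1 and none without F1 replicate 2. Under the scaling to 4 classes 2 stayed called, and in DESeq2 all 13 did. In a fit of the libraries compared alone none of the 13 stayed called, and the 1 gene that passed there was another.

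**Figure D3:**
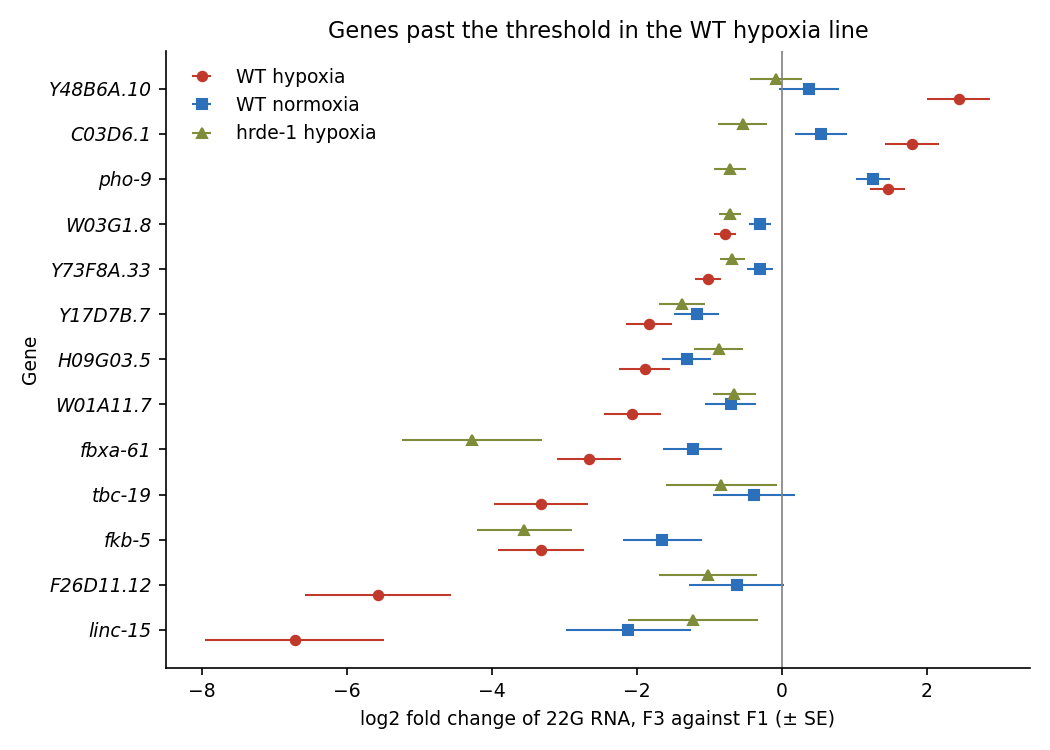
Log2 difference of F3 minus F1 in 22G RNA (with SE) at the 13 genes called in the WT hypoxia line, beside the same difference in WT normoxia and in hrde-1 hypoxia. All 10 lower genes were negative in all 3 lines, while the 3 higher genes were negative in hrde-1.

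All 13 genes moved in the same direction in WT under normoxia, where 0 of 10121 genes passed between F1 and F3 (0%; 291 at an unadjusted p below 0.05). The median difference there was -0.94 for the 10 lower genes and 0.54 for the 3 higher ones; over all genes tested 54.8% had the same sign in both lines. For fbxa-61 the normoxia libraries went from 294 and 243 CPM to 85.1 and 144, and for Y17D7B.7 from 292 and 260 to 115 and 130. At pho-9 they went from 95.8 and 71.3 to 195 and 207. The difference between the changes of the lines was tested directly: no gene passed in edgeR (0%), with 493 at an unadjusted p below 0.05 and 6 passing in DESeq2. The genes with the smallest p were C25D7.15 (difference of changes 2.74, adjusted p = 0.38), drr-1 (adjusted p = 0.38) and H05C05.4 (2.30, adjusted p = 0.426). A p that misses the threshold does not show that the lines changed alike.

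In hrde-1 mutants of the hypoxia line 338 genes passed between F1 and F3 (3.34%), 24 higher and 314 lower. Their 22G RNA table summed to 1737863 and 1635864 counts at F1 and to 1280976 and 746812 at F3. The part of this lower depth in the calls was not tested. The 22G RNA against hrde-1 itself was 342 and 328 CPM at F1 and 271 and 245 at F3 in the mutant, and 689 and 602 at F1 and 475 and 605 at F3 in WT; it does not measure the mRNA and so does not check the mutant label. Of the 13 genes of the WT line, 10 had the same sign in hrde-1 and 5 passed there as well, which is 38.5% of the 13 and 1.48% of the 338. All 10 lower genes were negative in hrde-1, whereas none of the 3 higher ones was positive. pho-9 had 774 and 893 CPM at F1 and 499 and 516 at F3 in hrde-1, a change that differed from that in WT by 2.18 ± 0.33 (edgeR adjusted p = 0.00524). C03D6.1 had 440 and 526 CPM at F1 and 300.2 and 365 at F3 in hrde-1, and its changes differed by 2.34 ± 0.50 (edgeR adjusted p = 0.047). In all, 20 genes differed in their change between WT and hrde-1 (0.198%), 17 higher in WT and 3 lower; without the F2 WT normoxia libraries these were 4 and 0, and without F3 WT hypoxia replicate 1 they were 6 and 0.

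Lists of genes with known roles were counted as well. They were drawn up with earlier results of the same data known, so their counts describe the libraries. With 0.0988% of all genes called lower and 0.0296% higher, counts of 0 or 1 in lists of these sizes set no list apart. Of 188 F-box genes tested 1 fell (fbxa-61) and their median was -0.24, and of 45 long intergenic RNA genes 1 fell (linc-15) with a median of -0.03, against -0.04 over all genes. The list of ERGO-1 targets, duplicated genes and pseudogenes silenced through 26G RNAs, had 0 of 21 called and a median of -0.24. Its member with the smallest p was Y17D7B.4, with 1645 and 1569 CPM at F1 and 631 and 972 at F3 (-1.004 ± 0.23, edgeR adjusted p = 0.0928). None was called among 21 Argonaute genes (median -0.05), 39 other genes of the small RNA machinery (0.04), 16 germ granule genes (0.11), 12 hypoxia response genes (-0.23), 59 histone genes (-0.0034) or 47 respiratory chain genes (0.10). The same held for 42 MATH and BATH genes (-0.37), 44 C-type lectins (-0.39), 80 nuclear hormone receptors (-0.15), 85 chemoreceptors (0.05) and 69 ribosomal protein genes (0.24).

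Among 8 ribosomal RNA genes, whose antisense small RNAs arise when rRNA is faulty, none passed and the members differed. The median was 0.76, with rrn-4.5 and rrn-4.15, which had no counts in the 4 libraries compared, entering at 0. rrn-4.3, the most abundant at F1, had 5174 and 9099 CPM at F1 and 2503 and 0 at F3 (edgeR adjusted p = 0.94). rrn-3.1 went from 1677 and 2317 CPM at F1 to 4938 and 4324 at F3 (1.21 ± 0.50, edgeR adjusted p = 0.495), and rrn-3.56 from 301.4 and 678 to 1943 and 1721 (1.90 ± 0.60, edgeR adjusted p = 0.304). The rRNA copies are near identical and share reads, and 3 of the 8 had an unadjusted p below 0.05. The summed list was 7600 and 12650 CPM at F1 and 10360 and 6849 at F3, which overlap. In WT normoxia the median of the list was 0.68.

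Marker lists of stage and tissue give the makeup of the worms only through the 22G RNA against their genes. Spermatogenesis genes summed to 939 and 832 CPM at F1 and 801 and 964 at F3, and 0 of 46 passed, with a median of -0.73 over mostly low genes. Oogenic and maternal genes summed to 2991 and 3079 CPM at F1 and 3291 and 3612 at F3, with 0 of 30 passing and a median of 0.16. The oogenic sums of F3 lay above those of F1, and the spermatogenesis sums overlapped. No gene passed among 29 collagen and cuticle genes (median -0.29), 5 vitellogenin genes (-0.04), 27 neuronal genes (-0.07) or 7 muscle genes (0 for the median). The part of worm stage or tissue makeup in the results was not tested.

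More piRNAs fell than rose, and many that fell were no longer listed at F3. The number of piRNAs with a value was 7046 and 7284 at F1 and 5003 and 5993 at F3. The table holds no value from 1 to 4 in these libraries, so a piRNA listed at 0 may have had a few reads, and no fold is given for it. This limit was not equal: the smallest value above 0 was 5 and 6 at F1, 7 in F3 replicate 1 and 5 in F3 replicate 2. Of the 7978 tested, 3512 were at 0 in F3 replicate 1 and 2586 in replicate 2. Of the 103 that fell, these were 73 and 63. The part of the unequal limits in the calls was not tested. Of 7978 piRNAs tested, 1827 were listed at 0 in both F3 libraries and 763 in both F1 libraries. Of the 103 that fell, 62 were at 0 in both F3 libraries, with F1 means of 36.1 to 169 CPM (median 70.1). The rule for naming gave 4 of these. piR-cel-4371 had 178 and 160 CPM at F1, and piR-cel-12318 had 155 and 80.8. piR-cel-3411 had 141 and 74.3 CPM at F1, and piR-cel-10149 had 77.5 and 136. All 4 were listed at 0 in both F3 libraries and present in both F2 libraries.

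Better measured were the 41 other piRNAs that fell, with log2 differences of -4.25 to -1.29 and a median of -1.95. The following 4 were chosen after their values were seen. piR-cel-2191 had 600 and 658 CPM at F1, 574 and 397 at F2, and 153 and 174 at F3 (-1.95 ± 0.34, edgeR adjusted p = 0.00239). piR-cel-6487 had 984 and 1278 CPM at F1, 729 and 1141 at F2, and 247 and 406 at F3 (-1.80 ± 0.32, edgeR adjusted p = 0.00294). piR-cel-2682 went from 270 and 271 CPM to 38.8 and 54.2 (-2.55 ± 0.48), and piR-cel-7255 from 818 and 725 to 308 and 182 (-1.65 ± 0.32; edgeR adjusted p = 0.00366 for both). In each, both F3 libraries lay below the F1 and F2 libraries.

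The 39 piRNAs that rose were all measured in both generations of the 3 lines compared, and rose by 1.04 to 3.24 (median 1.69). piR-cel-15707 had 307 and 278 CPM at F1, 644 and 243 at F2, and 2775 and 2735 at F3 (3.24 ± 0.56, edgeR adjusted p = 0.00366). piR-cel-15716 had 700 and 688 CPM at F1, 1191 and 487 at F2, and 3551 and 5807 at F3 (2.75 ± 0.47, edgeR adjusted p = 0.00366). In both piRNAs the F3 libraries stood above all libraries of F1 and F2. piR-cel-15879 had 557 and 706 CPM at F1, 665 and 732 at F2, and 2154 and 3923 at F3 (2.27 ± 0.36, edgeR adjusted p = 0.00183). piR-cel-13591 had 51.6 and 142 CPM at F1, 222 and 222 at F2, and 1070 and 329 at F3 (2.84 ± 0.53, edgeR adjusted p = 0.00366). The F3 libraries differed widely at piR-cel-13591, yet both lay above F1 and F2. In a fit of the libraries compared alone no piRNA passed, so none of those described here stayed called. Of the 12 piRNAs described here, 6 stayed called without F3 replicate 1 and 10 without F1 replicate 1.

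The piRNAs called in the hypoxia line mostly had the same sign in WT under normoxia. There 38 piRNAs passed between F1 and F3 (0.476%), 31 higher and 7 lower, and 21 of them had passed in the same direction in the hypoxia line, which is 55.3% of the 38 and 14.8% of the 142. All 39 that rose were higher in normoxia (median 1.43), and 39 of the 41 measured that fell were lower (median -0.94). Over all piRNAs tested, 67.3% had the same sign in both lines. piR-cel-15707 had 335 and 417 CPM at F1 and 2069 and 1138 at F3 in normoxia, and piR-cel-6487 had 895 and 870 at F1 and 281 and 214 at F3. No piRNA differed in its change between hypoxia and normoxia in edgeR (0%), with 507 at an unadjusted p below 0.05 and 38 passing in DESeq2. Leaving out 1 library of the 8 gave between 2 and 319 such piRNAs.

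In hrde-1 hypoxia, 117 piRNAs passed between F1 and F3 (1.47%), 4 higher and 113 lower. Of these, 9 had passed in the same direction in WT hypoxia (6.34% of 142 and 7.69% of 117). The piRNA table of the hrde-1 hypoxia libraries summed to 528037 and 385354 counts at F1 and to 263477 and 215629 at F3. The part of this lower depth in the calls was not tested. The 39 that rose in WT had a median of -0.06 in hrde-1, and 19 of them were positive. The 41 measured that fell had a median of -0.53 and 36 were negative; over all piRNAs 54.4% had the same sign. The changes of WT and hrde-1 differed for 81 piRNAs (1.02%), 65 higher in WT and 16 lower, and without the F2 WT normoxia libraries for 49 and 9.

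**Figure D4:**
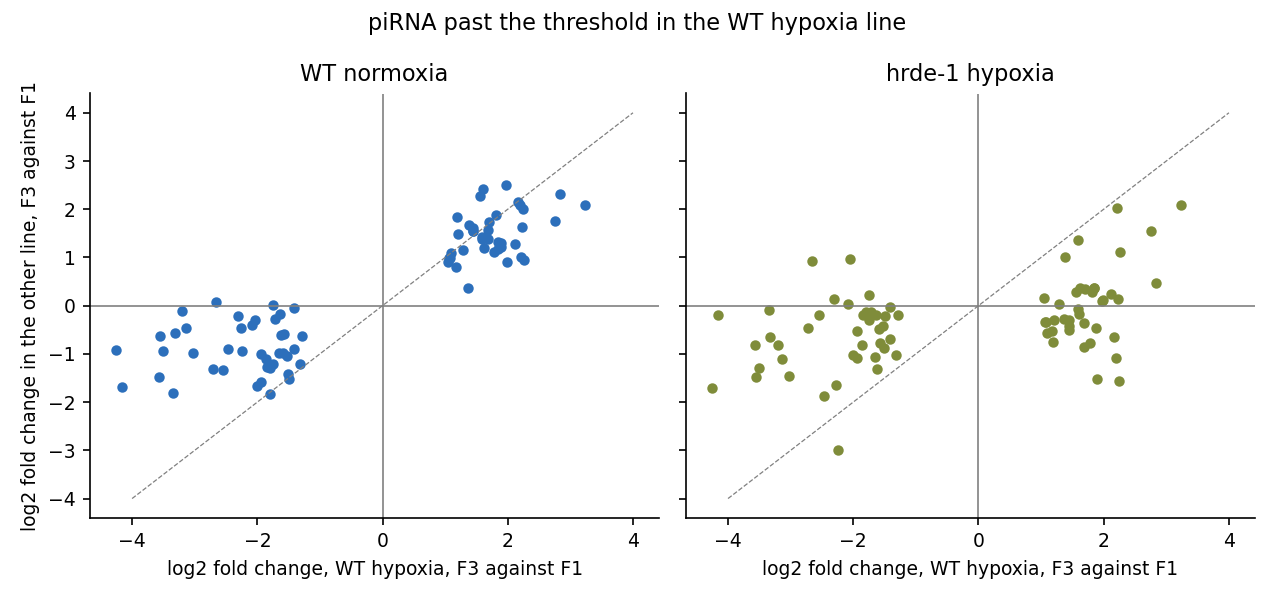
Log2 difference of F3 minus F1 in WT hypoxia against that in WT normoxia and in hrde-1 hypoxia, for the piRNAs called in WT hypoxia and measured in all 6 groups. The 39 that rose lie above 0 in normoxia (median 1.43) and around 0 in hrde-1 (median -0.06).

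No miRNA passed between F1 and F3. miR-81-3p, of the abundant mir-58 family, had 14630 and 22720 CPM at F1, 21650 and 36950 at F2, and 40540 and 59130 at F3 (1.42 ± 0.33, edgeR adjusted p = 0.0524). miR-239a-5p had 134 and 149 CPM at F1, 160 and 112 at F2, and 21.2 and 57.6 at F3 (-1.85 ± 0.46, edgeR adjusted p = 0.0524). miR-244-5p had 386 and 514 CPM at F1, 273 and 154 at F2, and 33.2 and 210.4 at F3 (-1.89 ± 0.49, edgeR adjusted p = 0.0632). These had the smallest p-values of the class, and their F1 and F3 libraries did not overlap, as at 103 of the 261 miRNAs. Within the family of miR-81-3p, miR-58a-3p had 143000 and 244400 CPM at F1 and 134800 and 263800 at F3, and miR-80-3p had 93280 and 100000.0 at F1 and 73920 and 86860 at F3; the median of 13 members was 0.04.

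Families that mark stages showed no calls either. The let-7 family, which acts in late larvae, had a median of -0.37 over 13 members, and let-7-5p had 12880 and 14690 CPM at F1 and 6840 and 12210 at F3 (-0.53 ± 0.27). lin-4-5p, which times larval development, had 9441 and 8915 CPM at F1 and 5402 and 9787 at F3 (-0.27 ± 0.25). The F1 and F3 libraries of lin-4-5p overlapped. The mir-35 family, made in oocytes and embryos, had a median of 0.63 over 16 members; miR-35-3p had 28550 and 29590 CPM at F1 and 32680 and 52040 at F3 (0.54 ± 0.43). The summed mir-35 family was 54110 and 54790 CPM at F1 and 54990 and 92300.0 at F3. No miRNA differed in its change from WT normoxia (0%; 10 at an unadjusted p below 0.05, 1 in DESeq2) or from hrde-1 hypoxia (0%; 42 at an unadjusted p below 0.05, 18 in DESeq2).

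The smallest p-values against hrde-1 hypoxia were those of miR-37-3p (difference of changes 3.101), miR-237-5p (-1.69) and miR-57-5p (-1.31), with an edgeR adjusted p of 0.0516 each. miR-37-3p, a mir-35 family member, had 7152 and 7290 CPM at F1 and 6796 and 15400 at F3 in WT, and 3360 and 6608 at F1 and 952 and 833 at F3 in hrde-1. The smallest p-values against WT normoxia were those of miR-246-5p, miR-237-3p and miR-4923b, each listed at 0 in both libraries of a group, with edgeR adjusted p-values from 0.158 to 0.759. The whole-number values in the miRNA table also start at 5.

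Relative to the whole class, mostly abundant short snoRNAs fell and mostly longer, less abundant ones rose. R12E2.17 (I:4175997-4176064, plus strand), in an intron of the proteasome subunit gene rpn-8, had 5342 and 6573 CPM at F1, 10250 and 11000 at F2, and 533 and 619 at F3. It fell by 3.37 ± 0.50 (log2, SE; edgeR adjusted p = 4.44e-05), 10.3-fold, and no libraries of the 3 generations overlapped. C46C2.8 (IV:9191261-9191333, minus strand) went from 9240 and 10840 CPM to 1407 and 2089 (-2.52 ± 0.49, edgeR adjusted p = 0.00119). C27H5.9 (II:7184010-7184078, minus strand) went from 43500 and 41290 CPM to 6757 and 11190 (-2.24 ± 0.46, edgeR adjusted p = 0.00138). E01A2.11 (I:4138208-4138333, minus strand), in an intron of akir-1, went from 1135 and 1264 CPM to 46.0 and 397 (-2.48 ± 0.51, edgeR adjusted p = 0.00138). In all of them both F3 libraries lay below both F1 libraries. ZK265.10, chosen after its values were seen, took the largest share of those named: 53190 and 57300 CPM at F1, 99020 and 80910 at F2, and 11730 and 16820 at F3 (-1.95 ± 0.38, edgeR adjusted p = 0.00119).

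Of the snoRNAs that rose, C24G7.6 (I:4078904-4079024, plus strand), in an intron of the muscle gene unc-89, had 38.6 and 35.1 CPM at F1 and 221 and 187 at F3 (2.44 ± 0.73, edgeR adjusted p = 0.0254). These rest on 5 and 5 counts at F1 and 24 and 16 at F3. Y75B7AL.9 (V:1326450-1326538, plus strand) went from 100.4 and 70.2 CPM to 561 and 187 (2.14 ± 0.68, edgeR adjusted p = 0.0358), and T21B4.20 (II:12519086-12519217, plus strand) from 178 and 98.3 to 644 and 514 (2.07 ± 0.63, edgeR adjusted p = 0.0297). Y119C1B.13 (I:4539889-4540026, minus strand) went from 471 and 625 CPM to 2675 and 992 (1.74 ± 0.46, edgeR adjusted p = 0.00978). The F3 libraries differed widely from each other at Y75B7AL.9 and Y119C1B.13. Y48A6C.10, chosen after its values were seen, went from 4979 and 5197 CPM to 15220 and 10290 (1.33 ± 0.35, edgeR adjusted p = 0.0106). Of the 10 snoRNAs described, R12E2.17 stayed called without F3 replicate 1, and 5 did without F1 replicate 1 or without F1 replicate 2. Under the scaling to 4 classes the 5 that fell stayed called.

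The snoRNAs that fell were shorter and more abundant at F1 than those that rose. The 29 that fell had a median annotated length of 75 nt, and 21 of them (72.4%) were at most 100 nt long. The 16 that rose had a median length of 139 nt and 2 (12.5%) were that short, against 93 (27.5%) of all 338 with a position, whose median was 130 nt. The 93 short snoRNAs had a median log2 difference of -0.58, with 2 higher and 21 lower, and the 245 longer ones 0.49, with 14 higher and 8 lower. The median F1 level was 9997 CPM for those that fell, 726 for those that rose and 528 for all tested. The share inside an intron of a protein-coding gene differed less, with 34.5% of those that fell, 31.2% of those that rose and 41.7% of all. The 10 most abundant snoRNAs at F1 took 27.8% and 29.0% of the snoRNA counts at F1 and 19.3% and 21.4% at F3. Because values are scaled within the class, a fall of abundant members and a rise of others are not independent; under the scaling to all 4 classes 51 fell and none rose.

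**Figure D5:**
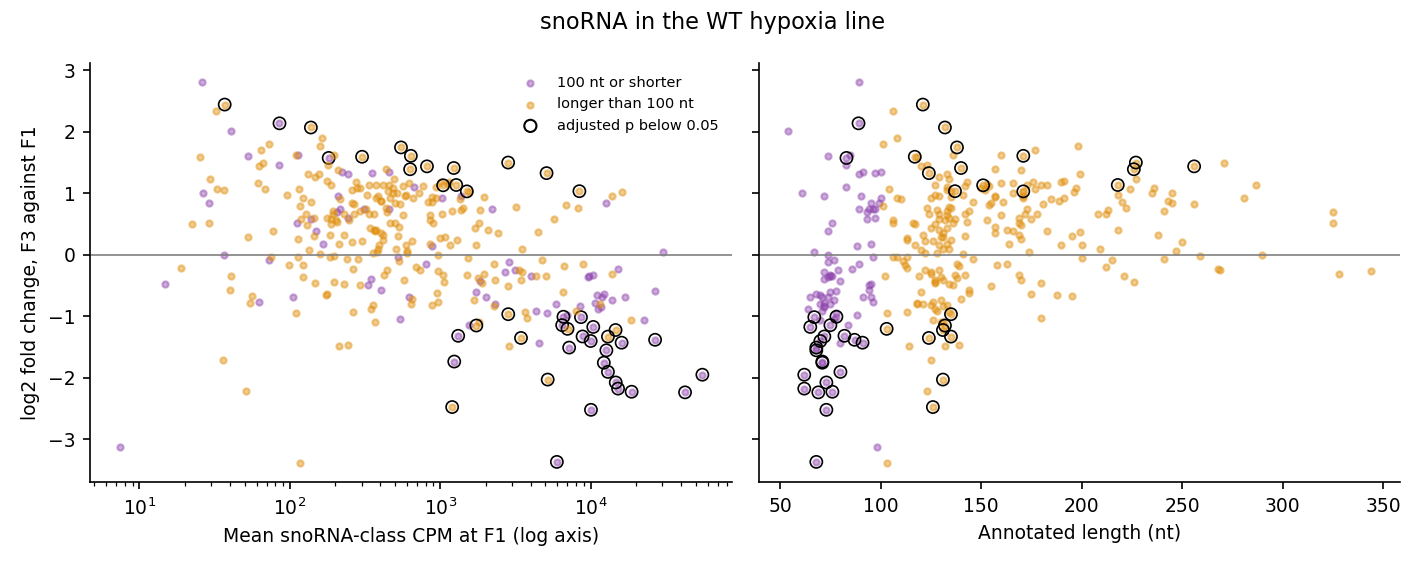
Log2 difference of F3 minus F1 for each snoRNA in WT hypoxia against its mean level at F1 (left, CPM, log axis) and its annotated length (right, nt). Colour separates snoRNAs of 100 nt or shorter from longer ones, and called snoRNAs are ringed in black. The called lower ones cluster at lengths around their median of 75 nt and the called higher ones around 139 nt.

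In WT under normoxia 8 snoRNAs passed between F1 and F3 (2.36%), and 40 of the 45 called in the hypoxia line had the same sign there (88.9%, against 73.7% of all tested). The exception in size was R12E2.17, with 4898 and 7724 CPM at F1 and 11470 and 5907 at F3 in normoxia. It was the 1 snoRNA whose change differed between hypoxia and normoxia (0.295%), by -3.83 (edgeR adjusted p = 0.000688). In hrde-1 hypoxia no snoRNA passed (0%; 70 at an unadjusted p below 0.05), and 3 of the 45 had the same sign (6.67%, against 29.8% of all tested). The changes of WT and hrde-1 differed for 86 snoRNAs (25.4%), 45 higher in WT and 41 lower. ZK265.10 had 52010 and 40340 CPM at F1 and 71440 and 81040 at F3 in hrde-1, where its F3 libraries stood above F1, the reverse of WT.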

How the data were processed

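Small RNA libraries of whole worms (2 per group, 16 groups) were sequenced as 85 bp single reads after pyrophosphohydrolase treatment of 500 ng of total RNA. The submitters' processing notes name FastQC, cutadapt 2.5, featureCounts and edgeR; the aligner, genome build and use of strand are not given in the sources used here. The authors deposited raw counts per feature in 4 tables, with 46932 genes (22G RNA), 390 miRNAs, 13664 piRNAs and 345 snoRNAs. In the deposited 22G RNA, miRNA and piRNA tables the F2 WT normoxia columns hold estimated counts that need not be whole, which were rounded; the miRNA and piRNA tables hold no other value between 0 and 5. 5 summary entries of the 22G RNA table were left out. Positions and names come from WBcel235 for the 46919 genes and 344 snoRNAs matched by identifier.

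Each table was fitted with edgeR 4.0.16 (R 4.3.3) over 32 libraries and 16 group means, with trimmed-mean scaling within the class, a minimum count of 10 and robust quasi-likelihood F tests. P-values were Benjamini-Hochberg adjusted over all features tested, with a threshold of 0.05, and SE is the size of the log2 difference divided by the square root of F. Differences of changes were contrasts of the same fit. Shares were tested by exact permutation. DESeq2 1.42.0, other scalings, filters and sample sets, a replicate block and left-out libraries were alternatives; those for F2 were chosen after seeing the data. Intervals and limits cover counting error only.

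On simulated data for F3 against F1, 30.1% of 83 genes changed 4-fold (log2 size 2) and 7.48% of 107 changed by log2 size 1 were recovered among 9453 genes for 22G RNA. For piRNA these shares were 16% and 0%, and for snoRNA 67.6% and 23.3%. False calls numbered 2 for 22G RNA, 2 for piRNA and 0 for snoRNA. The simulated counts had no lower limit such as that of the piRNA table, so the piRNA shares may not hold for the deposited values.

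The comparison, gene lists and tests were chosen with earlier results of these data known. Named 22G RNA genes are up to 12 called in each direction with at least 10 CPM, and hrde-1, F44E5.4, F44E5.5, E01G4.5 and the hsp-16 genes always. For miRNA up to 8 and for piRNA and snoRNA up to 4 per direction were named by size of change. For differences of changes up to 6 per direction were named, and where none passed, the 3 with the smallest p; of genes called at P0, up to 6. Exceptions are stated.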

Additional observations from a re-analysis of the deposited data

Results flagged for a closer look

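The features below were singled out because the F3 minus F1 change of the WT hypoxia line differed from that of another line in edgeR's test of the difference itself. Against WT normoxia this was R12E2.17 among the snoRNAs, with a difference of -3.83 (log2). All other values are against hrde-1 hypoxia.

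In 22G RNA, 5 of the 6 genes with the largest higher changes in WT were at 0 in both F3 hrde-1 libraries. These libraries had the lower 22G RNA depth given above. K08D10.15 had 83.7 and 75.3 CPM at F1 and 45.9 and 83.4 at F3 in WT, and 151 and 118 at F1 and 0 and 0 at F3 in hrde-1 (adjusted p = 0.0362). ZC239.21, Y47D3A.21, Y102A5C.6 and oac-55 were the others at 0, with adjusted p-values of 0.041, 0.0362, 0.041 and 0.0402. In WT none of these 5 genes passed between F1 and F3. F31E3.12, which overlaps eef-1A.1 on the other strand, differed by 6.02, with 14.2 and 11.63 CPM at F1 and 28.02 and 20.5 at F3 in WT against 19.5 and 15.8 at F1 and 0.70 and 0 at F3 in hrde-1; it passed in all 8 fits with a library left out. The other 8 genes named here as differing passed in 1 or 2 of these 8 fits and in none without the F2 WT normoxia libraries, and without F3 WT hypoxia replicate 1 only Y102A5C.6 of them passed. Lower changes in WT were found at Y113G7B.12 (adjusted p = 0.0489, with 0 in groups of both lines), C18A3.14 (-6.53) and sosi-1 (-1.43). C18A3.14 lies opposite the snoRNA gene C18A3.12, K08D10.15 opposite K08D10.11, and oac-55 opposite the non-coding RNA gene Y39H10A.8. sosi-1, which lies opposite eri-6, had 2119 and 2028 CPM at F1 and 1121 and 1601 at F3 in WT, and 71.2 and 66.3 at F1 and 99.8 and 145 at F3 in hrde-1.

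Among piRNAs, piR-cel-3401, piR-cel-5485, piR-cel-576, piR-cel-2118, piR-cel-5869 and piR-cel-1082 were listed at 0 in both F3 hrde-1 libraries, with adjusted p-values of 0.000573, 0.000175, 0.000913, 0.00757, 0.049 and 0.0115. These libraries had the lower piRNA depth given above, and a piRNA listed at 0 may have had a few reads. piR-cel-5485 had 118 and 118 CPM at F1 and 457 and 294 at F3 in WT, and 85.7 and 126 at F1 in hrde-1. Lower in WT were piR-cel-15882 (adjusted p = 0.0249), piR-cel-11820 (0.0371), piR-cel-4820 (0.0243), piR-cel-12318 (0.0111), piR-cel-3335 (0.00931) and piR-cel-4371 (0.0257), all listed at 0 in both F3 WT hypoxia libraries. Without F3 WT hypoxia replicate 1, piR-cel-5869 and piR-cel-11820 lost their call.

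Among snoRNAs, the higher changes in WT were those of K12D12.7 (adjusted p = 0.0386, at 0 in both F3 hrde-1 libraries), T21B4.20 (5.17), F43A11.8 (3.72), Y32G9A.15 (3.17), Y75B7AL.9 (3.03) and F58D5.12 (2.85). The lower ones were R12E2.17 (-4.79), ZK20.9 (-4.65), F48A9.6 (-4.21), Y71D11A.7 (-3.60), T27A3.9 (-3.48) and E01A2.11 (-2.96). F48A9.6 rests on 14 counts at F1 and 2 at F3 in WT, a ratio of 3.79 with an exact 95% counting interval of 0.87 to 34.3 that includes no change, and ZK20.9 on 31 and 2, a ratio of 8.39 with an interval of 2.13 to 72.3. F48A9.6 and K12D12.7 passed in 1 of 8 fits with a library left out, and ZK20.9 and Y75B7AL.9 in 3. Without F3 WT hypoxia replicate 1, F48A9.6, ZK20.9, Y32G9A.15, Y75B7AL.9 and F58D5.12 lost their call. T27A3.9 had 16790 and 20630 CPM at F1 and 3337 and 4645 at F3 in WT, and 14130 and 10140 at F1 and 26650 and 31090 at F3 in hrde-1.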

How the results depend on the processing

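Counts of calls moved with the tool, the samples in the fit and single libraries, and the cause was not tested. For F3 against F1 in WT hypoxia, 22G RNA gave 13 calls as reported, 79 in DESeq2, 2 under the scaling to 4 classes, 125 without a filter on low counts, 1 in a fit of the libraries compared alone, 262 in a fit of WT libraries and 0 to 154 with a library left out. miRNA gave 0, then 22 in DESeq2, 3 with DESeq2 size factors, 2 under 4 classes, 15 without a filter, 3 with a CPM of at least 5 in 2 libraries, 3 with WT alone, 1 with the replicate block and 0 to 25 with a library left out. piRNA gave 142, then 666 in DESeq2, 248 under 4 classes, 0 in the libraries compared, 508 with WT alone and 45 to 919 with a library left out. snoRNA gave 45, then 95 with WT alone and 1 to 91 with a library left out. For hypoxia minus normoxia, 22G RNA gave 0, then 6 in DESeq2, 47 without a filter, 7 with WT alone and 0 to 27 with a library left out; miRNA 0, 1 in DESeq2 and 0 to 5; piRNA 0, 38 in DESeq2, 3 without a filter and 2 to 319; snoRNA 1, 4 in DESeq2, 3 with WT alone and 1 to 3. For WT minus hrde-1 under hypoxia, 22G RNA gave 20, then 93 in DESeq2, 8 with DESeq2 size factors, 12 under 4 classes, 155 without a filter, 7 in the libraries compared, 4 without F2 WT normoxia and 2 to 105 with a library left out. miRNA gave 0, then 18, 6, 5 and 12 in the same order, 9 with a CPM of at least 5, 3 with the replicate block and 0 to 21; piRNA 81, 519 in DESeq2, 24 under 4 classes, 0 in the libraries compared and 39 to 629; snoRNA 86, 50 in the libraries compared and 28 to 108. The snoRNA share difference was -1.49 points with the summary entries kept; leave-one-out differences ran from 5.66 to 10.8 (22G RNA), -6.46 to -0.50 (miRNA), -3.67 to -2.34 (piRNA) and -1.82 to -1.65 (snoRNA). Single features reversed, none of them called, under 4 classes: hsp-16.1 0.44, hsp-16.11 0.29, hsp-16.48 0.43, hsp-16.49 0.34, hrde-1 0.21 and F44E5.4 0.19; with a library left out, hsp-16.48 ran from -0.45 to 0.16 and hsp-16.49 from -0.52 to 0.061. Of 1469 values of named features, 1084 kept direction and side of the threshold, 293 lost their call and 84 gained one. Deviations of same-numbered F1 and F3 WT hypoxia libraries correlated by -0.000325 (22G RNA), -0.016 (miRNA), -0.046 (piRNA) and 0.116 (snoRNA). The labels do not say what a replicate number marks, and these correlations cannot show whether the libraries were paired. The replicate block gave 16, 1, 121 and 35 calls. Among 22G RNA genes with a mean of at most 5.99 CPM, miRNAs of at most 5.77 and piRNAs of at most 16.3 none was called, while 3 snoRNAs of at most 233 CPM were.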
